A study of Mus with 4 samples.

Results

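The transcripts described here are the 208 of 9732 marked genes (2.14%) that carried 6 or more m6A peaks in interscapular brown adipose tissue (iBAT) of control mice. They were chosen by counting, for each Ensembl gene identifier, the peaks listed for *Wtap* flox/flox iBAT, and together they held 1515 of the 18400 control peaks (8.23%). m6A was profiled by MeRIP-seq, in which fragmented poly(A)+ RNA is precipitated with an antibody against m6A and stretches with more reads in the precipitate (IP) than in the input are called as peaks. Both genotypes were C57BL/6 mice, 8 weeks old and on normal chow. The control was *Wtap* flox/flox without Cre, and the knockout, *Wtap*-BKO, was *Wtap* flox/flox with UCP1-iCre. *Ucp1* drives this Cre in brown adipocytes, so vessel, immune and stromal cells of the tissue keep *Wtap*. Each genotype had 1 IP and 1 input sample, 4 samples in all, each made from pooled mice. There were therefore no replicates and no difference between genotypes could be tested. Shares are given with 95% Wilson intervals, which reflect counting error alone and take each peak as independent. The lists hold no read totals, so the depth is unknown.

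m6A is placed on nascent RNA by a writer complex in which METTL3 and METTL14 hold the catalytic core, and WTAP, VIRMA, ZC3H13 and RBM15 or RBM15B form the part that brings it to its targets. Marks lie mostly in long internal exons and around stop codons, and reader proteins such as those with a YTH domain bind them and alter splicing, export, translation or decay. A transcript with a long uninterrupted exon can hold many marks, which a peak list shows as a row of separate peaks.

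The genes were marked with 6 to 21 control peaks. Exactly 6 peaks were listed for 112 genes, 7 for 39, 8 for 25, 9 for 8, and 10 or more for 24. The threshold fell in a dense range, since 210 genes just outside it had 5 peaks. *Ahnak*, which encodes a giant scaffold protein, had the most with 21. It was followed by *Spen*, a transcriptional repressor, with 17, and by *Zfhx4*, a zinc finger and homeobox transcription factor, with 16. The identifier ENSMUSG00000063286, which has no symbol and lies in the span of the non-coding gene *Gm8995* in the RefSeq table, also had 16, which merge to 11 where peaks overlap. *Plec* (plectin) and *Macf1*, which link cytoskeletal filaments, and *Kmt2a*, a histone H3 lysine 4 methyltransferase, had 14 each. *Kmt2d*, of the same enzyme family, and *Dst* (dystonin), a cytoskeletal linker, had 13 each, and *Dido1*, a chromatin protein, had 12, as did *Stard9*. *Ntrk3* also had 12, which merge to 9 where peaks overlap. These counts chose the genes and are given as a description.

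A symbol was given in the files for 203 of the identifiers. Of the 5 without one, ENSMUSG00000092274 lay in the span of *Neat1*, ENSMUSG00000092341 in that of *Malat1*, and ENSMUSG00000056579 overlapped that of *Tug1*, all long non-coding RNAs. The peaks of the last ran to 3649673 on chromosome 11, past the edge of the *Tug1* span at 3648814. ENSMUSG00000075585 lay within the span of *Pdgfa*, without a strand in the table used. A RefSeq span was matched for 199 of the 208 genes, and its median was 68461 bp against 23626 bp for the 8313 matched genes of the 9524 with 1 to 5 control peaks. Peak positions are given on GRCm38, and peak sequences and motifs were not analysed here.

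Genes of large structural proteins and of chromatin proteins were heavily marked more often than the 9732 marked genes as a whole, although only 32 of the 208 genes (15.4%) were in the lists of cytoskeletal, histone-modifying or remodelling proteins. Of listed cytoskeletal, centrosome and Golgi proteins with a control peak, 11 of 31 (35.5%) were among the 208 genes, beside 2.14% of all genes with a control peak. They were *Ahnak*, *Plec*, *Macf1*, *Dst*, *Stard9*, *Golgb1*, *Cep350*, *Trip11*, *Cep250*, *Mtus1* and *Akap13*. This list was drawn up with giant proteins in mind, and heavily marked genes had longer spans, so its high share is tied to how it was made. The part of gene length in the shares of this and the other lists was not tested. The m6A machinery had 5 of 20 (25%), histone methyltransferases and demethylases 10 of 46 (21.7%), and chromatin remodelling proteins 11 of 51 (21.6%). The histone enzymes were *Kmt2a*, *Kmt2b*, *Kmt2c*, *Kmt2d*, *Kmt2e*, *Setd2*, *Nsd1*, *Ash1l*, *Prdm2* and *Prdm16*. Insulin signalling had 2 of 51 (3.92%) and brown fat genes 1 of 51 (1.96%), both close to the share over all genes. Ubiquitin ligases and proteases had 2 of 38 (*Rnf213* and *Vcpip1*), nuclear receptor coregulators 1 of 28 (*Ncoa1*) and endoplasmic reticulum genes 1 of 38 (*Rrbp1*).

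Some listed groups had no member. At the 2.14% share over all genes, groups of this size would hold few or none. No nuclear gene of oxidative phosphorylation was among the 208 (0 of 47, and the most peaks on any of them was 3), no mitochondrial ribosomal protein (0 of 63, at most 4) and no cytosolic ribosomal protein (0 of 14, at most 1). Of cell type markers, lymphocytes had 0 of 6, fibroblasts 0 of 16 and skeletal muscle 0 of 7. Macrophages had 1 of 14, *Mpeg1*, a pore-forming protein of phagocytes, and endothelium 1 of 12, *Flt1*, a VEGF receptor. Brown adipocyte markers had 1 of 25, *Prdm16*. The macrophage gene *Mpeg1* kept all of its 6 control peaks, under 3 broader *Wtap*-BKO peaks, and *Flt1* kept 4 of 6. Since the peaks come from whole tissue, fewer cells of a type and less RNA per cell cannot be told apart.

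**Figure D1:**
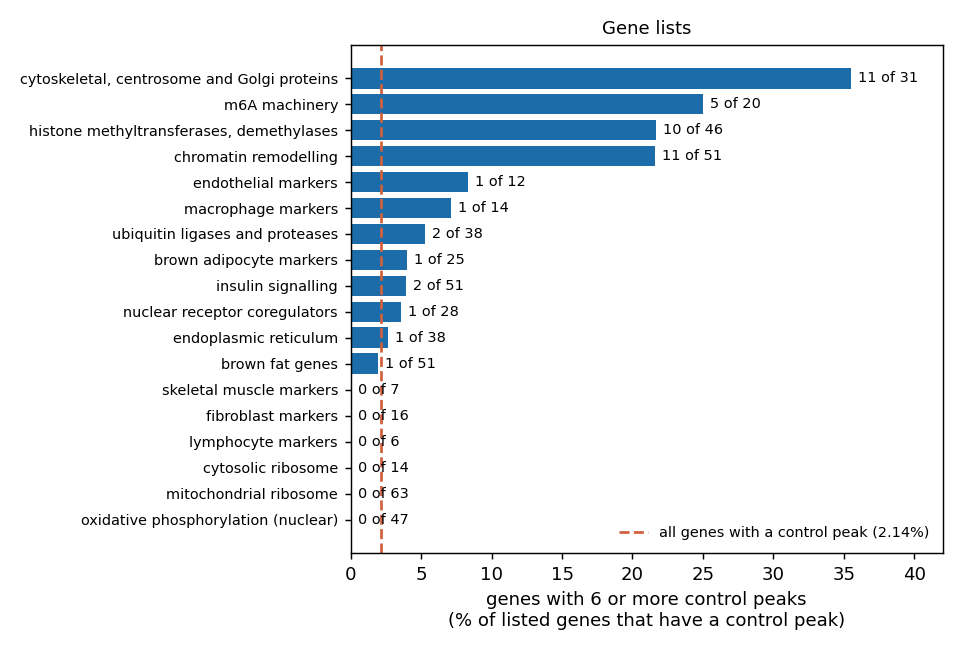
Share of the genes of each list that had 6 or more control peaks, in percent of the listed genes with any control peak. Numbers at the bars give the counts, and the dashed line marks the 2.14% over all genes with a control peak, which 4 lists exceed by a wide margin (21.6% to 35.5%). The list of cytoskeletal, centrosome and Golgi proteins was drawn up with giant proteins in mind.

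The domain descriptions deposited with the peaks gave counts by protein family. A C2H2 zinc finger was named for 32 of the 203 described genes (15.8%) and for 5.67% of all 8784 described genes. A PHD-type zinc finger, which reads histone tails, was named for 14 (6.90% against 0.854%), a SET domain, the catalytic fold of histone lysine methyltransferases, for 10 (4.93% against 0.421%) and a bromodomain, which binds acetylated lysine, for 9 (4.43% against 0.433%). Ankyrin repeats were named for 10 (4.93% against 1.32%) and BTB/POZ domains for 8 (3.94% against 1.42%). Protein kinases were near their overall share, with 8 genes (3.94% against 3.77%), and none of the 118 genes described as ribosomal proteins was included. These domains overlap, since the same KMT2 proteins hold PHD and SET domains.

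Neighbouring control peaks of these genes lay close together. The 1307 genomic gaps between the end of a peak and the start of the next, with introns counted, had a median of 448 bp (25th percentile 208, 75th percentile 2356). For the 7361 gaps of genes with 2 to 5 peaks the median was 1109 bp (267 to 9346). More peaks on a transcript leave less room between them, so this difference is tied to how the genes were chosen. Gaps of up to 1000 bp made up 66.2% on the heavily marked genes and 48.5% on the others. The fullest bin was 200 to 299 bp, with 207 gaps (15.8%), and 40 gaps were 0 because the peaks overlapped in genomic extent. Positions are coarse: 735 of 825 gaps from 1 to 1000 bp (89.1%) lay within 2 bp of a multiple of 30, where an even spread would put 16.7%, and so did 1504 of 1515 peak widths (99.3%). No gap above 0 was shorter than 47 bp. The spacing therefore describes the windows in which peaks were called rather than distances between single methylated adenosines.

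**Figure D2:**
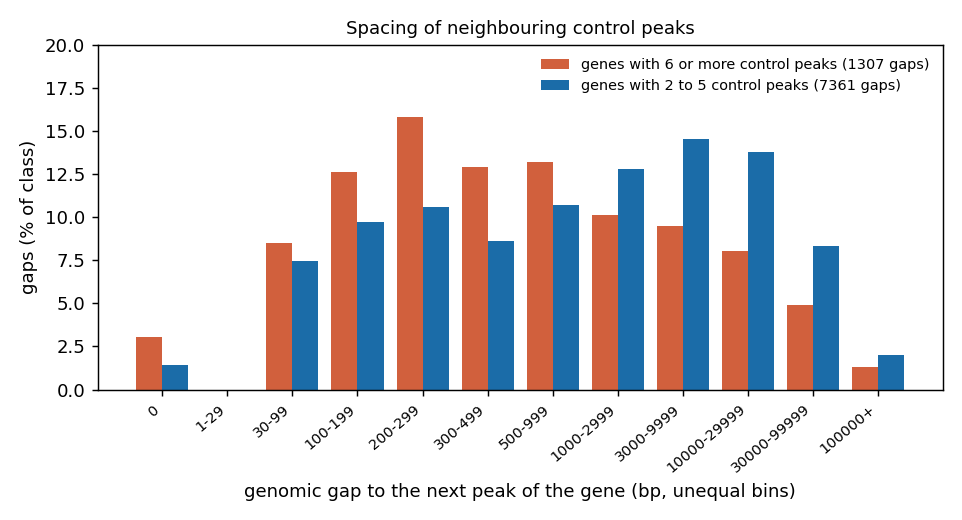
Genomic gaps between neighbouring control peaks of the same gene, as percent of the gaps of each class, in bins of unequal width in bp. Genes with 6 or more peaks (1307 gaps, median 448 bp) are shifted towards short gaps against genes with 2 to 5 peaks (7361 gaps, median 1109 bp).

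The genes differed in whether their peaks formed 1 row or several groups. From first to last peak they spanned a median of 25434 bp (25th percentile 9747, 75th percentile 74020). The shortest stretch was 1435 bp on *Usp27x*, a ubiquitin protease, and the longest 393233 bp on *Ntrk3*, a neurotrophin receptor. In 28 genes every peak followed the previous within 1000 bp, and 49 had at least 6 peaks in such a row. The 21 *Ahnak* peaks covered 11496 exonic bases in a stretch of 17940 bp on chromosome 19, from 9000861 to 9018800, with a median gap of 254 bp and no gap above 778 bp. The 14 *Plec* peaks lay in 10629 bp of chromosome 15, from 76171184 to 76181812, with a median gap of 299 bp. In contrast, the 8 peaks of *Prdm16*, the brown fat fate regulator, were spread over 318172 bp of chromosome 4 with a largest gap of 294745 bp, and the 16 of *Zfhx4* over 173536 bp of chromosome 3 with a largest gap of 153443 bp.

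Few of the peaks lay near the annotated gene ends. Of 1433 peaks inside matched genes of at least 3000 bp, 109 (7.61%, interval 6.34% to 9.10%) were centred within 1000 bp of the 3′ end, against 3300 of 14289 (23.1%, 22.4% to 23.8%) on genes with 1 to 5 peaks. Only so many peaks fit in a fixed window, and counted by gene the difference was small. A peak near the 3′ end was present on 83 of 199 heavily marked genes (41.7%, 35.1% to 48.7%) and on 2988 of 7827 others (38.2%, 37.1% to 39.3%), with overlapping intervals. Single peaks were slightly wider than on other genes, with a median of 270 against 240 exonic bases. They were not stronger by the authors' values: the median fold enrichment was 6.30 against 6.60 and the median log10 of the false discovery rate (FDR), for which lower is stronger, was -7.68 against -7.75. They were less often split over several exon blocks, 9.17% against 16.0%.

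Most peaks of these genes were also found in *Wtap*-BKO iBAT, and a little more often than peaks elsewhere. A peak was counted as found when a peak of the other list overlapped it by 1 exonic base or more, on the same strand. Of the 1515 peaks, 1108 (73.1%, interval 70.8% to 75.3%) were found and 407 were not, where 67.8% of all control peaks were found. On genes with 1 to 5 peaks the share was 67.4% (66.7% to 68.1%), a difference of 5.77 percentage points (3.37 to 8.05). On either side of the threshold it was 68.5% (65.6% to 71.2%) for genes with 5 peaks and 72.6% (69.1% to 75.9%) for genes with 6, whose intervals overlap. For genes with 10 or more peaks it was 76.5% (71.4% to 81.0%). A peak that was not found is only one for which nothing passed the authors' threshold in *Wtap*-BKO.

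Set against genes with 1 to 5 peaks, the shares were apart in the stronger and wider peaks, and their intervals overlapped in the weakest and narrowest. When all control peaks were ranked by FDR and divided into 5 groups of equal size, peaks of heavily marked genes in the second strongest group were found in 95.6% (92.8% to 97.3%), against 81.3% (79.9% to 82.6%) on genes with 1 to 5 peaks and 87.4% (82.5% to 91.2%) on genes with exactly 5. In the strongest group the shares were 95.9% (92.6% to 97.8%) and 90.2% (89.1% to 91.1%). In the third they were 75.2% (70.2% to 79.5%) and 67.3% (65.7% to 68.9%), in the fourth 60.6% (55.2% to 65.7%) and 56.2% (54.6% to 57.9%), and in the weakest 37.8% (32.3% to 43.7%) and 41.7% (40.1% to 43.4%), and the intervals of these last groups overlap. By width, the shares for peaks of 241 to 390 bases were 83.1% (79.2% to 86.4%) and 74.2% (72.9% to 75.5%), for wider peaks 96.1% (93.8% to 97.5%) and 91.8% (90.9% to 92.6%), and for peaks of at most 151 bases 42.3% and 44.4%.

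**Figure D3:**
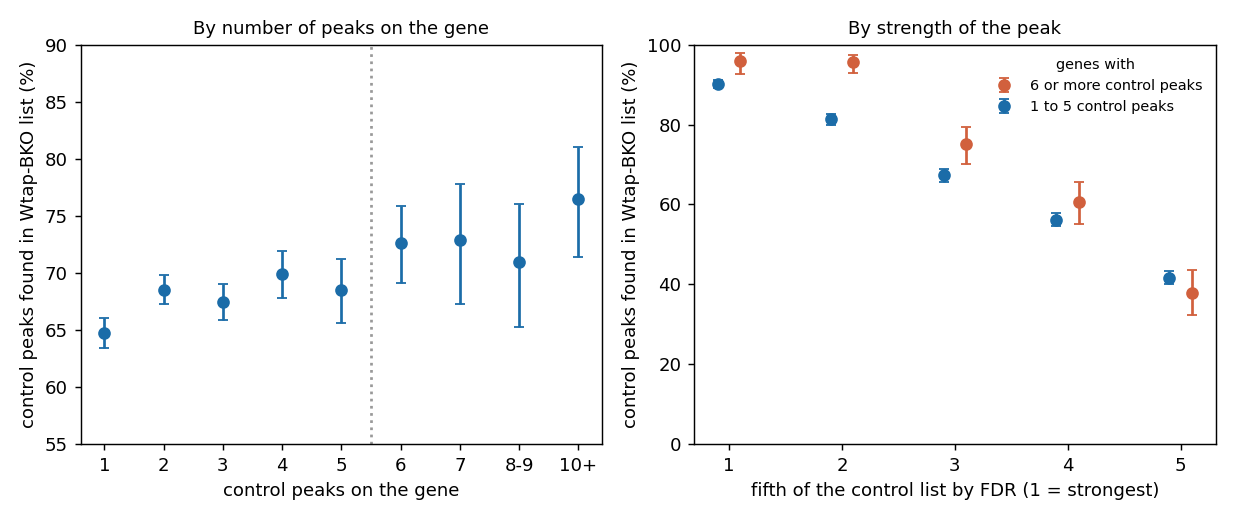
Control peaks found in the *Wtap*-BKO list, in percent with 95% Wilson intervals, by the number of control peaks on the gene (left, axis from 55% to 90%, dotted line at the threshold of 6) and by the 5 groups of the control list ranked by FDR (right, axis from 0). The largest separation is in group 2, at 95.6% against 81.3%, and the weakest group shows overlapping intervals.

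Pooled over the 208 genes, peaks that were not found tended to be weaker and narrower, though single genes such as *Hk2* and *Ppp2r3a* lost strong peaks. The median width was 329 bases for found and 180 bases for missing peaks, the median fold enrichment 6.83 and 5.0, and the median log10 FDR -11.6 and -3.49. An FDR under 1e-05 was held by 835 of the 1108 found peaks and by 121 of the 407 missing. The strongest peak of a gene was found in 198 of 208 genes (95.2%, 91.4% to 97.4%), and the weakest in 45.2% (38.6% to 52.0%). Position along the transcript also went with the share. The peak nearest the 5′ end was found in 130 of 208 genes (62.5%, 55.8% to 68.8%), the inner peaks in 821 of 1099 (74.7%, 72.1% to 77.2%) and the peak nearest the 3′ end in 157 of 208 (75.5%, 69.2% to 80.8%). The intervals of the 5′ and inner peaks do not overlap. The 5′ peaks were also narrower than the inner ones, with a median of 241 against 270 bases. By FDR they were less strong, with a median log10 FDR of -5.72 against -7.98, but their median fold enrichment was higher, 8.12 against 6.00. The part of these in the share was not tested. On genes with 3 to 5 peaks the 3 shares were 67.1%, 70.9% and 65.9%.

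Close neighbours went with a higher share on these genes. Peaks with another peak of the gene 101 to 300 bp away were found in 76.6% (72.9% to 79.9%), and those more than 10000 bp from the next in 63.6% (54.1% to 72.1%), whose intervals do not overlap. The isolated peaks were narrower, with a median of 211 against 271 bases, and less strong by FDR, with a median log10 of -6.45 against -8.54. Their median fold enrichment was slightly higher, 6.90 against 6.56. On genes with 2 to 5 peaks the shares at the same distances were 68.3% and 68.7%. In exonic bases, 66.7% of the 496460 bases under control peaks of the 208 genes lay under *Wtap*-BKO peaks too, and 60.9% on genes with 1 to 5 peaks.

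Counted gene by gene, 207 of the 208 transcripts still had a peak in *Wtap*-BKO, and most had some control peaks that were not found. With 6 or more peaks on each gene, both are tied to how the genes were chosen. The median gene had 77.1% of its control peaks found (25th percentile 62.3%, 75th percentile 85.7%). All peaks were found on 36 genes (17.3%, 12.8% to 23.0%), where 53.9% of all marked genes had every peak found and 25.2% (19.8% to 31.5%) of the genes with 5 peaks did. More peaks give a gene more that can be missed, so this share falls with the count that chose the genes. Exactly 1 peak was missing on 57 genes and 2 or more on 115 (55.3%). Under 50% were found on 21, and on 1 of these, *Fam83h*, none was found. On genes with 5 peaks, none was found on 2 of 210. The numbers of genes missing exactly 1 peak, missing 2 or more, or with under 50% found were not computed over all marked genes. Peak numbers were lower in *Wtap*-BKO on 130 genes (62.5%, beside 36.7% of all marked genes), equal on 42 (20.2%) and higher on 36 (17.3%, beside 21.6%). Genes just outside the threshold were close to this, with lower numbers on 59.5% of the genes with 5 peaks and on 57.1% of those with exactly 6. Of the 208 genes, 118 also had 6 or more *Wtap*-BKO peaks.

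Choosing genes by a high count in one list can by itself give lower counts in the other, so the same rule was applied to the *Wtap*-BKO list. It chose 233 genes with 1664 peaks, of which 72.4% (70.2% to 74.5%) were found in the control list, where 68.0% of all *Wtap*-BKO peaks were. Of these 233 genes 151 (64.8%) had fewer control peaks, and on 34 (14.6%) every peak was found. The share of genes with fewer peaks in the other list was thus 62.5% for the control-chosen and 64.8% for the *Wtap*-BKO-chosen genes. The same shares over all genes with a *Wtap*-BKO peak were not computed, so no excess can be given for that direction. The 118 genes common to both choices were 56.7% of the control-chosen and 50.6% of the *Wtap*-BKO-chosen genes. By FDR, *Wtap*-BKO peaks in the second strongest of 5 groups were found in 87.1% (83.3% to 90.2%) on genes with 6 or more *Wtap*-BKO peaks and in 86.8% (85.7% to 87.9%) on the others. In the third they were found in 73.0% (68.1% to 77.4%) and 66.4% (64.8% to 68.0%), and in the fourth in 58.4% (52.8% to 63.8%) and 51.9% (50.2% to 53.6%).

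**Figure D4:**
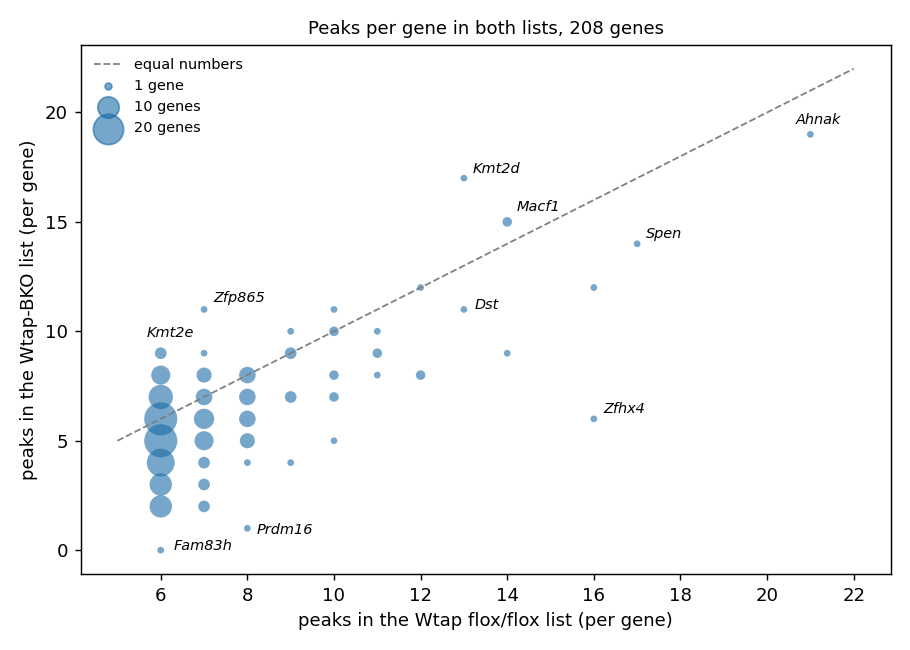
Number of peaks per gene in the *Wtap* flox/flox list (horizontal) and the *Wtap*-BKO list (vertical) for the 208 genes, with the area of a point showing how many genes share it and the dashed line marking equal numbers. More genes lie below the line (130) than above it (36), and no gene has under 6 control peaks because that chose them.

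Cytoskeletal proteins kept 94 of 121 peaks (77.7%), beside 73.1% on all 208 genes and 67.8% over all control peaks. Over all marked genes of this list the share was much the same, 77.9%. Intervals were not computed for the lists. *Ahnak* had 21 control and 19 *Wtap*-BKO peaks, and 18 of the control peaks were found. The first 13 from the 5′ end were all found, and those missing were the 14th, the 17th and the 19th. Its strongest control peak, of 1080 bases with a log10 FDR of -309, was met by a *Wtap*-BKO peak sharing 960 bases. The strongest of the missing *Ahnak* peaks, from 9013109 to 9013498, had a log10 FDR of -28.7 and a fold enrichment of 2.87. *Plec* kept 13 of 14 peaks and had 15 in *Wtap*-BKO, 2 of them between control peaks. A kept *Plec* peak of 121 bases shared only 1 base, and 68.8% of the exonic bases under its control peaks were shared. *Macf1* kept 11 of 14 and had 15. *Dst* kept 8 of 13 and had 11, and *Stard9*, a kinesin-like protein, kept 10 of 12 and had 12.

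Histone methyltransferases kept 66 of 84 peaks (78.6%, beside the same 73.1%). Over all marked genes of the histone enzyme list the share was 74.1%. *Kmt2d* kept 12 of 13 control peaks and rose in number to 17. Of these 17 *Wtap*-BKO peaks 3 lay outside control peaks, with log10 FDR of -1.91, -4.46 and -1.81, and 2 control peaks each lay over 2 *Wtap*-BKO peaks. *Kmt2e* kept 5 of 6 and had 9 in *Wtap*-BKO, and 2 of its control peaks each met 2 peaks there. The *Kmt2e* peak nearest the 3′ end, of 1527 bases with a log10 FDR of -118, shared 1198 bases with a *Wtap*-BKO peak of log10 FDR -92.6. *Kmt2a* went the other way in number, with 14 control and 9 *Wtap*-BKO peaks and 11 found. *Prdm16* was the exception in this list, with 3 of 8 found, all under a single *Wtap*-BKO peak of 1230 bases. Its drop of 7 in peak number was the second largest of the 208 genes, but it includes the joining of these 3 into 1. From the 5′ side the missing *Prdm16* peaks had log10 FDR of -5.13, -1.94, -7.32, -2.71 and -1.87, and those found had -17.5, -5.16 and -26.9. Of the exonic bases under its control peaks 53.4% were shared. Some peaks lay over several in the other list. Of the 1515 control peaks of the 208 genes, 134 each met 2 or more *Wtap*-BKO peaks, and 140 *Wtap*-BKO peaks each covered 2 or more control peaks. The same counts over all peaks were not computed. Closely spaced peaks are more easily covered together, so these counts are tied to how the genes were chosen.

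Of the chromatin remodelling proteins 55 of 77 peaks were found (71.4%), near the 73.1% on all 208 genes. *Bptf*, a subunit of the NURF remodelling complex, kept all 9, and *Baz2a*, a nucleolar remodelling protein, kept 2 of 6. *Dido1* kept 7 of 12 and had 8, and the repressor gene *Spen* kept 13 of 17 and had 14. On C2H2 zinc finger genes 158 of 231 peaks (68.4%) were found. *Zfp865*, of this class, kept 6 of 7 and rose to 11, with 4 *Wtap*-BKO peaks outside control peaks at log10 FDR of -1.39 to -3.23.

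The m6A machinery kept 23 of 32 peaks (71.9%, again near 73.1%) on its 5 heavily marked members. Of these, 3 encode partners of WTAP in the writer complex. *Virma* kept 4 of 7, the 4 nearest the 5′ end. The 3 missing *Virma* peaks lay from 11526607 to 11527266 on chromosome 4, at the 3′ side of the row, with log10 FDR of -5.65, -3.18 and -3.32. *Zc3h13* kept 6 of 7, under 5 *Wtap*-BKO peaks. *Rbm15b* kept 4 of 6, of which a pair overlaps. *Ythdc1*, the nuclear YTH reader, kept all 6, with shared bases of 270 to 480 per peak, and had 6 in *Wtap*-BKO. *Prrc2a*, also described as a reader, kept the 3 nearest the 3′ end of 6. The strongest *Prrc2a* peak had a log10 FDR of -104 in the control list and -65.2 in *Wtap*-BKO, and its 3 missing peaks had -2.75, -2.66 and -6.66. FDR values of both lists rest on separate calls, so they rank peaks within a list and are not a measured change.

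The insulin-related genes kept 10 of 15 peaks (66.7%, beside 73.1%). *Irs2*, an adaptor of the insulin receptor, kept 6 of 7 on chromosome 8. Its 2 strongest control peaks, with log10 FDR of -217 and -205, were met by peaks of -69.8 and -68.2, and the missing one was the narrowest, of 91 bases, at the 5′ end. *Hk2*, the hexokinase that traps glucose in insulin-responsive tissue, kept the first 4 of 8 peaks and lost the last 4, which lie from 82725235 to 82726495 on chromosome 6 (minus strand). From the 5′ side they had log10 FDR of -4.76, -57.7, -39.8 and -39.3, and no *Wtap*-BKO peak lay there. The last pair are near copies that overlap. The neighbouring *Hk2* peak of 781 bases, with a log10 FDR of -125, met 2 *Wtap*-BKO peaks of 121 and 151 bases with -3.67 and -6.53.

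The genes that kept fewest peaks were mixed in function. *Fam83h*, whose product organises keratin filaments, had 6 control peaks with fold enrichments of 4.50 to 13.5 and log10 FDR of -6.28 to -2.33, and no *Wtap*-BKO peak. *Adgrl1* (an adhesion receptor), *Cdadc1* (a cytidine deaminase family gene) and *Ppp2r3a* (a regulatory subunit of protein phosphatase 2A) kept 1 of 6 each. The missing *Ppp2r3a* peaks included 1 of 629 bases with a log10 FDR of -33.7. *Zfhx4* kept 4 of 16 and had 6 in *Wtap*-BKO, the largest drop in number. Its strongest control peak, the last at the 3′ end with a log10 FDR of -112, was among those found, against -31.8 for the *Wtap*-BKO peak there. *Qrich1*, a glutamine-rich transcriptional regulator, kept 2 of 7, which were its 2 strongest. The same share was found on *Stox2*, *Zfp704* and *Fbrsl1*.

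Of the genes that kept every peak, ENSMUSG00000063286 had the most, with 16 control and 12 *Wtap*-BKO peaks. As 10 of the 16 overlapped in pairs, they merge to 11, and 8 of the 16 lay under a single *Wtap*-BKO peak. *Bod1l*, a replication fork protection gene, kept all 10 and had 11 in *Wtap*-BKO. *Pdzd2*, a PDZ domain protein gene, and *9930021J03Rik* kept all 8 with 8 in *Wtap*-BKO. The identifiers in the span of *Neat1* and *Malat1* kept 10 of 10 and 7 of 7. Both included control peaks with an FDR listed as 0. *Pakap*, an A-kinase anchoring protein gene, kept 5 of 6, but each of its peaks also shared bases with a peak of another identifier on the same strand, so their gene is uncertain.

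Some counts come from peaks listed more than once. On 14 of the 208 genes at least 1 pair of peaks shared exonic bases, in all 74 peaks. The 10 peaks in the span of *Neat1* were 5 near-identical pairs, for example those from 5843080 to 5844249 and from 5843080 to 5844240 on chromosome 19. With peaks of overlapping genomic extent merged, 11 genes fell below 6: *Nfix*, *Zfp729a*, *Egr3*, *Usp27x*, *Pwwp2b*, *Pcdhb22*, *Rbm15b*, *Fignl2*, ENSMUSG00000075585, ENSMUSG00000092274 and ENSMUSG00000092341. Of these, the *Nfix* peaks shared no exonic base, and their blocks only interleave across introns. In addition, 23 peaks on 7 genes shared bases with another identifier on the same strand and 38 peaks on 26 genes with a peak on the opposite strand.

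Of the 1258 *Wtap*-BKO peaks listed for the same genes 1074 (85.4%, 83.3% to 87.2%) lay on control peaks and 184 did not. A transcript covered by many control peaks leaves less of itself uncovered, so this share is tied to the choice of genes and is not comparable with the 68.0% over all *Wtap*-BKO peaks.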

How the data were processed

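MeRIP-seq peak lists from 4 samples (IP and input per genotype, pooled mice) were analysed. Per the submitters' processing notes, fastp 0.19.11, BWA 0.7.12 and HOMER 4.9.1 were used with GRCm38.p6. The study's methods name MACS2, but the layout is that of exomePeak, so the caller is not settled here. The deposited lists give for each peak a p-value, its log10 and that of the FDR (used as scores), and a fold enrichment, a ratio of IP over input, made by the authors within 1 genotype. The authors had already kept only peaks with FDR under 0.05. An FDR of 0 occurs for 147 control peaks, 5 of them on the genes described.

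Peaks were matched, counted and drawn in Python 3.11.15 with numpy 2.4.6, scipy 1.17.1 and matplotlib 3.10.9. The matching was tested on simulated data. Overlap compared exon blocks on the same strand. Gaps are genomic, with overlaps set to 0. Gene spans came from a RefSeq table of GRCm38.p6, and names from the files.

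Genes named in full are the 10 with most control peaks, the 6 with the lowest share found, the 6 with most peaks among those keeping all, the 5 with the strongest summed log10 p-value (used because an FDR of 0 has no log), all members of the brown fat, m6A machinery and insulin lists, and the 3 largest rises and falls in peak number. Ties in peak number went to more bases covered, and ties in share found to more control peaks, then the smaller identifier. Other genes named within lists, or as extremes of spacing and overlap, were chosen after their values were seen. The genes, the lists and the rules were chosen with earlier results of these data known. Alternatives changed the overlap, the FDR threshold, the number of peaks required, and the merging or removal of overlapping peaks.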

Additional observations from a re-analysis of the deposited data

How the results depend on the processing

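Of 56 alternative values, 40 stayed within 1.5 times the reported count or gap, or within the interval of the reported share, and 16 did not. Some of the 40 could not change. The 208 genes and the median gap do not depend on the overlap rule or on a threshold in the searched list only. The 130 genes with fewer *Wtap*-BKO peaks do not depend on the overlap rule. A threshold in the searched list only can only raise that number, and the resulting 192 was still among the 40. Asking for 5 or more peaks gave 418 genes, 89 of them with every peak found and 255 with fewer *Wtap*-BKO peaks. Asking for 8 or more gave 57, 6 and 40. With an FDR under 1e-05 in both lists the 3 numbers were 55, 8 and 36, and the share of *Wtap*-BKO peaks found in the other direction was 77.6%. With that threshold in the searched list only, 53.4% of the control peaks were found, 3.37 percentage points above genes with fewer peaks, 13 genes kept every peak, 192 had fewer *Wtap*-BKO peaks, and the opposite direction gave 57.3%. Requiring at least 50% of the bases to be shared gave 64.2%, 25 genes with every peak found and, in the opposite direction, 67.3%. Merging peaks of overlapping genomic extent, chosen after seeing the data, left 197 genes with 72.8% found, and merging peaks within 100 bp left 158 with 73.7%. The median gap ranged from 389 to 568 bp. No paired analysis was possible because each genotype has 1 pooled sample, and for the same reason no replicate could be left out. Depth is unknown, so a missing peak cannot be told from one under the detection limit.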

Other observations

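Outside the named groups, the strongest control peak on these genes that was not found in *Wtap*-BKO lay on *Ntrk3*, a neurotrophin receptor gene, at chromosome 7 from 78301593 to 78302133 (GRCm38, minus strand). It covered 541 bases, its log10 FDR was -147 and its fold enrichment 4.29, stronger by FDR than 97.4% of the control list. Of the 12 *Ntrk3* peaks 7 were found. Of the 12, 6 overlapped in pairs, all of them among those found, so the 12 merge to 9. The next outside *Hk2* was on *Rasl12*, a small GTPase gene, at chromosome 9 from 65411693 to 65411933, with a log10 FDR of -48.5, and 2 of its 6 peaks were found. Outside *Hk2* and *Ppp2r3a*, peaks on *Cyhr1*, *Eif4e2*, a cap-binding protein gene, and *Fem1a*, a substrate receptor of a ubiquitin ligase, followed with -33.7, -31.1 and -31.0. In the opposite direction, the strongest *Wtap*-BKO peak of these genes without a control peak was on *Zbtb7a*, a zinc finger repressor gene, with -16.8, although each of the 6 *Zbtb7a* control peaks was found. One on *App*, which encodes the amyloid precursor protein, had -16.0, and the 6 *App* control peaks were all found too. These genes were singled out after their values were seen.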
